A study of Mus musculus with 8 samples.

Results

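The genes described here are 9 regulators that embryonic or fetal tissue uses for growth and that many tumors switch on again: the RNA-binding proteins Lin28a and Lin28b, the chromatin proteins Hmga1 and Hmga2, the transcription factors Myc, Mycn and Sall4, and the D cyclins Ccnd1 and Ccnd2. They were found on the array through the RefSeq accession of each probe, which gave 15 probes of 55681 and 9 of the 20151 named genes with a probe. Of these, 9 probes of 8 genes were bright enough to be tested, among 14313 genes tested in all. RNA of 8 hepatocellular carcinomas (HCC) from male mice with a knockout (KO) of miR-122, the most abundant microRNA of hepatocytes, was compared with liver RNA of age-matched male mice whose miR-122 gene was floxed. All mice had a mixed background of C57BL/6J and 129S/Svj. Each of 8 two-colour Agilent arrays on 1 slide held 1 tumor labelled with Cy5 and control liver labelled with Cy3, with no dye swap, so a dye effect and a tumor effect cannot be told apart for a single probe. The labels do not say whether tumors shared a mouse, whether the control RNA came from separate animals or 1 pool, or how the gene was removed. No tumor-free KO liver was among the samples, so loss of miR-122 and tumor growth cannot be told apart. In such bulk samples, fewer cells of a type and less RNA per cell cannot be told apart either.

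LIN28A and LIN28B bind precursors of the let-7 microRNAs and block their maturation, and mature let-7 in turn represses LIN28, HMGA2, MYC family and cyclin transcripts. In the liver this circuit is fetal: let-7 is high and LIN28B, HMGA2 and the insulin-like growth factor mRNA-binding proteins are silent in the adult organ, and several of them return in HCC. HMGA proteins bend AT-rich DNA, SALL4 is a zinc finger factor of fetal liver progenitors, MYC with its partner MAX activates genes of growth, and the D cyclins switch on CDK4 and CDK6 to release cells from the G1 phase. Mature let-7 levels were not analysed here. The sequences of 4 members of the family are shown because let-7 recognises its targets through the seed, bases 2 to 8, which is in capitals. They come from RefSeq on build GRCm38.p6, where let-7a and let-7d lie at chr13:48538239-48538260 and chr13:48536078-48536099 (both minus strand), let-7g at chr9:106178846-106178867 and miR-98 at chrX:151913229-151913250 (both plus strand).
let-7a-5p: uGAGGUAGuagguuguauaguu
let-7d-5p: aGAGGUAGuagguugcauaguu
let-7g-5p: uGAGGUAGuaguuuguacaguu
miR-98-5p: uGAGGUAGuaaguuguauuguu
The seed GAGGUAG was shared by 10 of the 11 mature members of the let-7 family in that table.

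The promoter of Lin28b is shown because MYC is known to activate this gene in other cells, and because Myc was high and Lin28b was not detected in these tumors. The window runs from 250 bases before to 50 after the annotated start, at chr10:45470152-45470451 on the minus strand of GRCm38.p6 (RefSeq). The capitals mark the E-box CACGTG, the palindrome that MYC and MAX bind, which begins at base 202 of the window, 49 bases before the start.
Lin28b promoter: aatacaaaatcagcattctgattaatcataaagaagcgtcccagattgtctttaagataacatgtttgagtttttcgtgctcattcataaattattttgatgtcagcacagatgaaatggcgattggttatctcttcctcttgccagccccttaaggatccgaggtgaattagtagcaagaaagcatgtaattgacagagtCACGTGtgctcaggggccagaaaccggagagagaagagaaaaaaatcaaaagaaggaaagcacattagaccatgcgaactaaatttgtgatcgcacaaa
Of the 9 genes, 5 had a promoter in the table, with 6 windows in all, and 1 window held CACGTG, that of Lin28b. The motif, which reads the same on both strands, was present in 7.15% of 32851 promoter windows. This match is a description of the letters and not of a bound site.

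Across the 9 genes, Myc and Ccnd1 rose in tumor and the others did not pass both limits of the test. A gene was called when its mean log2 ratio of tumor over control differed from 0 at an adjusted p under 0.05 (limma with Benjamini-Hochberg adjustment over all genes) and was at least 1 in size, which is 2-fold. Of the 8 tested, 2 were called higher, against 9.54% of all genes, and 0 were called lower, against 5.94%, so calls in either direction were 2 of 8 beside 15.5% of all genes. At any size, 6 of the 8 passed the adjusted p beside 53.8% of all genes. Of these, 4 lay above 0 (28.7% of all genes) and 2 below (25.1%). Hmga2, among those above 0, entered the tests through its tumor signal alone. The median ratio of the 8 was 0.42, against 0.03 over all genes. These counts describe the members and do not set them apart from other genes. Ratios are log2 of tumor over control, errors are SDs over 8 arrays, and channel levels are normalized log2 signals, which can be compared for 1 probe between tumors and controls but not between probes.

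**Figure D1:**
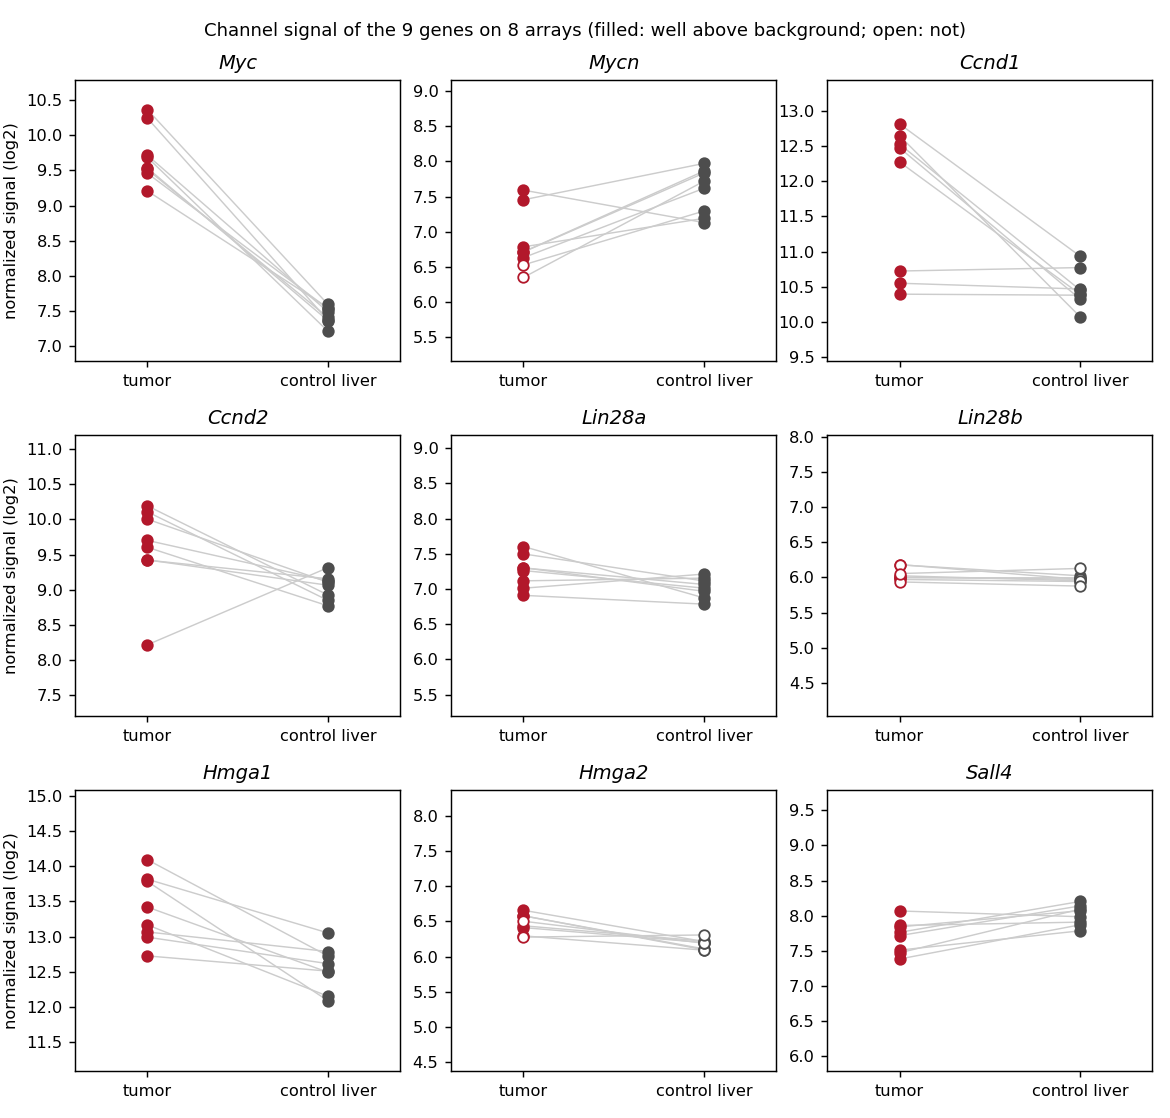
Normalized log2 signal of 1 probe per gene in tumor (left, red) and control liver (right, grey), with a line joining the channels of each array. Filled points were well above background and open points were not. All 8 tumors lie above all 8 controls for Myc, 5 tumors stand apart from the other 3 for Ccnd1, and every point of Lin28b is open.

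Myc, the proto-oncogene for the MYC transcription factor, was raised in every tumor. The ratio of its probe (A_52_P108346, 2 spots) was 1.66, 2.23, 2.87, 1.93, 2.47, 2.11, 2.17 and 2.77 on arrays 1 to 8. Its tumor levels ran from 9.21 through a median of 9.61 to 10.36, and its control levels from 7.21 through 7.45 to 7.59. The groups did not overlap, which held for 1 of the 8 members in this direction, against 8.32% of all genes, and for 0 in the other direction, against 8.47%. The mean ratio was 2.28 ± 0.41 (SD, n = 8), a 4.84-fold rise with an adjusted p of 2.98e-06. The SD between arrays was 0.40 among tumors and 0.12 among controls, a difference in spread that was not tested. Within the slide rows the ratio was 2.17 on arrays 1 to 4 and 2.38 on arrays 5 to 8, and both rows alone passed the test (adjusted p = 0.00180 and 0.00239).

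Mycn, a paralog used mostly in embryonic tissue, had a lower signal in 7 of 8 tumors than in the control of the same array. Its ratio on arrays 1 to 8 was 0.46, -0.41, -1.15, -1.12, -0.99, -1.37, -0.77 and -0.52 (A_52_P536494). Tumor levels were 6.35 to 7.59 with a median of 6.71, and control levels were 7.13 to 7.97 with a median of 7.67. Array 1 was the exception, and the ranges overlapped through tumors 1 and 8, at 7.59 and 7.45. The mean of -0.73 ± 0.58 (1.66-fold lower in tumor, adjusted p = 0.00820) was under the size of a call. The probe was well above background in 6 tumors and 8 controls. With the scanner's processed signals, which carry no added offset, the mean was -1.57 and Mycn was called lower (adjusted p = 0.00470). Mycn did not pass on arrays 1 to 4 alone (-0.55, adjusted p = 0.181) and did on the other arrays alone (-0.91, adjusted p = 0.0238).

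Partners and antagonists of MYC gave no call by limma in either direction, 0 of 10 tested, with a median of 0.11, and at an unadjusted p under 0.05 there were 2 above 0 and 1 below, beside 31.6% of all genes above 0 and 27.9% below. Mxd3, 1 of the 2 above 0, was well above background in 6 tumors and 0 controls. It entered the tests through the tumor channel alone, so its p is no separate support for a difference. With the processed signals of the scanner 1 gene of this list was called higher. Max, the obligate partner, had a ratio of 0.06 ± 0.46 (adjusted p = 0.738), with a sign that changed when array 8 was left out (-0.07). The antagonists Mxd1 and Mxd4 had ratios of 0.12 ± 0.41 and -0.17 ± 0.41 (adjusted p = 0.504 and 0.313), and the probe of Mxi1 was dim on every array. The brighter Mxd1 probe was at -0.10 on arrays 5 to 8 alone. A second tested probe gave 0.60 for Mxd1 and -0.31 for Mxd4. Among 30 classical MYC targets of ribosome assembly, nucleotide synthesis and metabolism, 1 was called higher and 0 lower. Over all genes the shares were 9.54% and 5.94%, and the median of the 30 was 0.11. An adjusted p under 0.05 was reached by 8 above 0 and 4 below, beside 28.7% and 25.1% of all genes. The member called was Hk2, the hexokinase that many tumors use for glycolysis (1.17 ± 0.58, 2.24-fold, adjusted p = 6.77e-04), a call not made on arrays 5 to 8 alone (0.83, adjusted p = 0.0694). Odc1, the ornithine decarboxylase of polyamine synthesis, had a ratio of 0.35 ± 0.72 (adjusted p = 0.217), from -0.85 in tumor 1 to 1.34 in tumor 7. Across the 8 arrays Myc and Odc1 ratios gave a Pearson r of 0.41 (exact permutation p = 0.310, adjusted over 3 relations 0.310) and a Spearman rho of 0.45 (p = 0.267, adjusted 0.751), and r was 0.69 without arrays 3 and 8. With each row of the slide centred, r was 0.40, and the 4 arrays of a row are too few for an r of their own.

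Ccnd1, which encodes cyclin D1, rose on average, with high levels in 5 tumors and control-like levels in 3. Its ratio (A_66_P111562) was 1.88, -0.05, 2.07, 2.57, 2.15, 1.88, 0.01 and 0.08 on arrays 1 to 8. Tumors 1, 3, 4, 5 and 6 had levels of 12.27 to 12.81, whereas tumors 2, 7 and 8 had 10.72, 10.40 and 10.55, within the range of the controls, which ran from 10.07 through a median of 10.42 to 10.93. Of the 8 ratios, 5 were at least 1 and 3 lay close to 0, with none between. The mean was 1.33 ± 1.11 (2.51-fold, adjusted p = 0.00840), above 0 on 7 arrays. The call was kept in each fit that left out 1 array, at 1.15 to 1.52. It was kept on arrays 1 to 4 alone (1.62, adjusted p = 0.0311) and lost on arrays 5 to 8 alone (1.03, adjusted p = 0.145). Arrays 1 to 4 held tumor 2, and arrays 5 to 8 tumors 7 and 8.

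**Figure D2:**
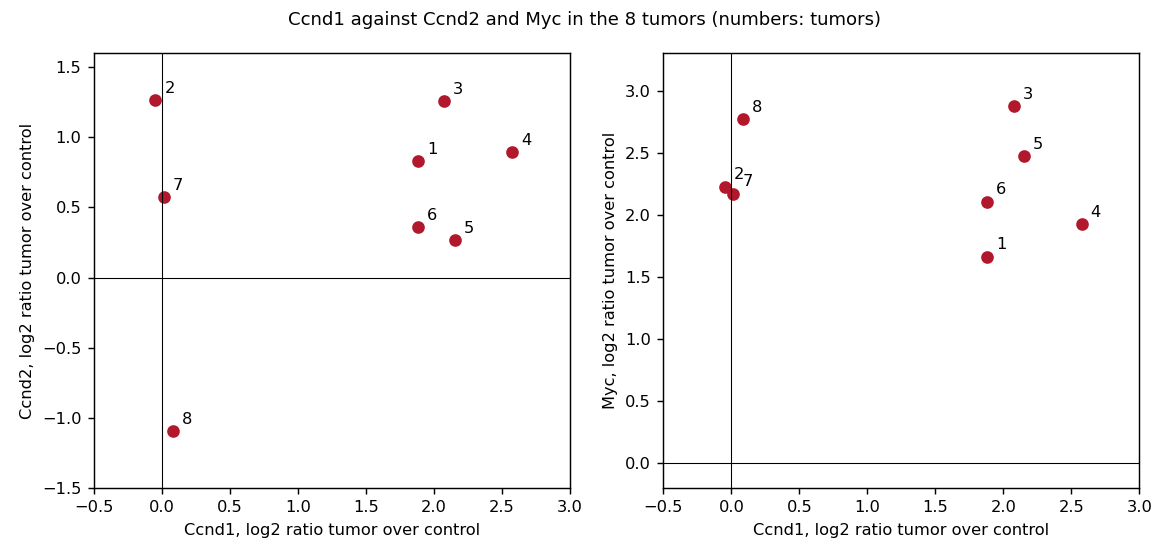
Log2 ratio of Ccnd1 (horizontal) against that of Ccnd2 (left panel, vertical) and of Myc (right panel, vertical), 1 point per tumor, numbered. Ccnd1 lies near 0 in tumors 2, 7 and 8 and between 1.88 and 2.57 in the others, Ccnd2 is below 0 in tumor 8 alone, and Myc is between 1.66 and 2.87 in every tumor.

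The tumors also differed in markers of bile duct cells, none of which was dim on every array. Of 7, 3 were called higher and 0 lower (9.54% and 5.94% of all genes). Summed over the list, these markers were at 10382, 13797 and 2954 in tumors 2, 7 and 8, and between 49017 and 101420 in tumors 1, 3, 4, 5 and 6, against 1932 to 7063 in controls. Spp1 was the brightest of them in tumors (median 15.47) and weighs most in these sums. The mean ratio of the list, in which each marker counts alike, was 0.85, 0.54 and 0.17 in tumors 2, 7 and 8. In tumors 1, 3, 4, 5 and 6 it was 1.83 to 2.09. The part of these markers in the Ccnd1 values was not tested. The 3 genes of 11209 searched whose ratios followed Ccnd1 most closely over the 8 arrays by Pearson r were Mug1, the growth factor receptor Fgfr3 and the cytochrome P450 Cyp2a12. No r is given, since it would record the same split of 5 tumors from 3. Fgfr3 was at -0.38, -0.85 and -0.66 in tumors 2, 7 and 8 and between 1.00 and 1.81 in the others. Mug1, a murinoglobulin of the liver, lay at -4.33, -3.83 and -3.83 in those 3 tumors and between -2.002 and -1.22 in the others.

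Ccnd2, which encodes cyclin D2, had a higher signal in 7 of 8 tumors than in the control of the same array and a lower one in tumor 8. On arrays 1 to 8 the ratio (A_52_P53906) was 0.83, 1.27, 1.26, 0.90, 0.27, 0.36, 0.57 and -1.10. Tumor levels ran from 8.22 through a median of 9.65 to 10.19, against 8.77, 9.08 and 9.31 in controls, and tumor 8, at 8.22, was the single tumor below every control. The other 7 tumors, at 9.42 to 10.19, lay above every control. The mean of 0.54 ± 0.76 did not pass (adjusted p = 0.0765), and without array 8 it was 0.78 (adjusted p = 0.00169), under the size of a call. With the slide row as a block the adjusted p was 0.0286, and with array weights the mean was 0.66 (adjusted p = 0.00793), both also under that size. Arrays 1 to 4 alone gave 1.06 (adjusted p = 0.00317, called) and arrays 5 to 8 alone 0.03 (adjusted p = 0.959). Array 8 also held skeletal muscle transcripts in its control channel, where the summed signal of 9 muscle genes was 90203, against at most 1105 in the other controls and 816 to 5553 in tumors. Tumor 8 was also the dimmest, and its Mki67 ratio was the lowest. Its summed stellate cell markers were 13438, against 31750 to 49423 in the other tumors, its macrophage markers 20732 against 33168 to 62577 and its lymphocyte markers 1551 against 2388 to 3106. Such sums weigh the brightest genes most. As mean ratios over the list, stellate and lymphocyte markers were lowest on array 8, at -0.38 and -0.27. Macrophage markers were not, at 0.21 against -0.97 to 0.41 on the other arrays. What these observations had to do with Ccnd2 was not tested.

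Cyclins D1 and D2 work with other G1 genes. Of 15 tested, 3 were called higher and 0 lower (9.54% and 5.94% of all genes), with a median of 0.51. The phosphatase Cdc25a, which activates cyclin-dependent kinases and is itself a let-7 target, rose by 1.82 ± 0.43 (3.54-fold, adjusted p = 1.14e-05). Cyclin E1 (Ccne1) rose by 1.68 ± 0.43, though its tested probes gave from 0.73 to 1.68, and the pocket protein gene Rbl1 by 1.31 ± 0.63. Rbl1 was not called on arrays 5 to 8 alone (1.05, adjusted p = 0.0702), and 5 genes of the list were called on arrays 1 to 4 alone. The third D cyclin, Ccnd3, had a ratio of 0.53 ± 0.27 (adjusted p = 0.00202). The kinases that D cyclins bind, Cdk4 and Cdk6, were at 0.51 ± 0.45 and 0.19 ± 0.11 (adjusted p = 0.0167 and 0.0443). All were under 2-fold, with tested probes from 0.53 to 0.77 for Ccnd3 and from 0.51 to 0.90 for Cdk4. Rb1, the retinoblastoma gene these kinases inactivate, was at 0.37 ± 0.32 (adjusted p = 0.0201). Among 7 inhibitors of these kinases, 2 were called higher and 0 lower, beside the same shares of all genes. They were Cdkn2b (1.66 ± 1.02, with tested probes from 0.69 to 1.66) and the p53 target Cdkn1a (1.61 ± 1.27). Each was called in 1 row of the slide: Cdkn2b was at 0.90 on arrays 5 to 8 alone (adjusted p = 0.103) and Cdkn1a at 0.70 on arrays 1 to 4 alone (adjusted p = 0.206). Cdkn2c had a ratio of 0.93 ± 0.30 (adjusted p = 1.08e-04) and was called without array 3 (1.001), with an added offset of 16 in place of 50 (1.14), with the processed signals (1.36) and with background left unsubtracted (1.04), and Cdkn1b, Cdkn1c and Cdkn2a had ratios of 0.08, 0.16 and 0.17, none with an adjusted p under 0.05. All 7 tested proliferation markers were called higher, beside 9.54% of all genes, with a median of 2.42. Cdk1 was well above background in 8 tumors and 1 control, and Top2a in 7 tumors and 2 controls. Both met the filter for testing through the tumor channel alone, so their calls are no separate support. Mki67, bright in both channels, rose by 2.92 ± 0.78. Ratios of Ccnd2 and Mki67 gave a Pearson r of 0.66 over the 8 arrays (exact permutation p = 0.0986, adjusted 0.296), a Spearman rho of 0.12 (p = 0.793, adjusted 0.793) and an r of -0.07 without arrays 2 and 8, so the size of r rests on those tumors. With each row centred, r was 0.54. No correlation of Ccnd1 with Mki67 was computed, since the Ccnd1 ratios fall into separate clusters.

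Ccnd1 is also known as a target of Wnt signalling. Of 9 other tested feedback and target genes of that pathway, 3 were called lower and 0 higher (5.94% and 9.54% of all genes). Their median was -0.38, and 8 passed the adjusted p at any size, all 8 below 0 (25.1% of all genes). Sp5, a transcription factor (-1.86 ± 1.30), the ubiquitin ligase Rnf43 (-1.66 ± 0.96) and the R-spondin receptor Lgr5 (-1.65 ± 0.88) fell. Single tumors departed from this: Sp5 was at 0.50 and Lgr5 at 0.10 in tumor 8, and Rnf43 at 0.27 in tumor 4. The mean of the 9 genes was -0.0038 on array 8, against -1.35 to -0.26 on the other arrays. The number called lower was 6 with the processed signals and 1 on arrays 5 to 8 alone, where Sp5 (-1.34, adjusted p = 0.0997) and Lgr5 (-1.46, adjusted p = 0.0636) were not called. Rnf43 was not called on arrays 1 to 4 alone (-1.54, adjusted p = 0.0543). Axin2, the standard reporter of this pathway, had 2 tested probes, with ratios of -0.33 and -0.23. They were well above background in 0 tumors and in 5 and 4 controls, so they entered the tests through the control channel alone. The brighter of them (A_66_P134405) was at least 1.14-fold lower in tumor (log2 ratio -0.23 ± 0.19, adjusted p = 0.0403), and with the processed signals Axin2 was called lower (-1.82, adjusted p = 0.00336).

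Lin28b was not detected in either channel of any array. Both probes (A_52_P532355 and A_55_P1970905, for the same transcript) were not well above background in 8 tumors and 8 controls, so neither was tested. Tumor levels of the first probe were 5.94 to 6.18 and control levels 5.88 to 6.13, and its ratio was 0.06 ± 0.09. The second gave 5.93 to 6.15 in tumors and 5.88 to 6.09 in controls, with a ratio of 0.07 ± 0.06. Since both channels were dim, no fold is given. Lin28a, the paralog found in embryonic stem cells, was well above background in both channels of every array, with levels of 6.91 to 7.60 in tumors (median 7.28) and 6.79 to 7.21 in controls (median 7.04). Its ratio of 0.23 ± 0.28 was above 0 on 6 arrays and did not pass (adjusted p = 0.0923). Array 4 was highest at 0.73 and array 7 lowest at -0.20.

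Of 14 genes that process let-7 or degrade it, 1 was called higher and 0 lower (9.54% and 5.94% of all genes). Their median was 0.21. The called gene was Hnrnpa1, a splicing factor that also binds the primary let-7a transcript in human cells (1.14 ± 0.36, adjusted p = 7.21e-05), whose tested probes gave from 0.33 to 1.14. That call was not made with the mean of its probes (0.73) or the processed signals (0.95). The 26 genes listed as let-7 targets included 23 tested. Of these, 5 were called higher and 0 lower, beside the same shares of all genes, with a median of 0.20. Igdcc4, a surface protein of the immunoglobulin superfamily, rose by 4.68 ± 0.47, from controls that were well above background on 5 of 8 arrays. The size depends on how dim signals are treated, at 5.51 with an offset of 16 and 6.81 with the processed signals. The matrix protein thrombospondin 1 (Thbs1) rose by 2.44 ± 0.93, Tgfbr1, a TGF-beta receptor, by 1.19 ± 0.35 with tested probes from 0.45 to 1.19, and Cdc25a as given above. The other called target was Plagl2 (1.06 ± 0.39), a zinc finger gene that was named after its value was seen. With the mean of each gene's probes 3 targets were called, and neither Tgfbr1 (0.82) nor Plagl2 (0.62) was among them. Plagl2 was also not called without array 1 (0.99) or on arrays 5 to 8 alone (0.89).

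The fetal mRNA-binding proteins that let-7 and LIN28B are known to control had ratios under the size of a call, which some other settings moved past it. Igf2bp3 was well above background in 6 tumors and 0 controls, so it too entered the tests through the tumor channel alone. Its levels were 6.25 to 7.85 in tumors and 6.00 to 6.12 in controls. All 8 tumors lay above all 8 controls, which held for 8.32% of all genes. In tumors 7 and 8, at 6.50 and 6.25, this set signals against each other that were not well above background. The gene was at least 1.75-fold higher in tumor (log2 ratio 0.85 ± 0.55, adjusted p = 0.00277). Tumors 1 and 4, at 1.73 and 1.63, had the highest ratios. Igf2bp3 was called on arrays 1 to 4 alone (1.13), without arrays 7 and 8 (1.02), with an offset of 16 (1.41), with the processed signals (3.73) and with background left unsubtracted (1.22). Igf2bp2 had a ratio of 0.82 ± 0.60 (adjusted p = 0.00533, above 0 on 7 arrays), and was called with an offset of 16 (1.09), the processed signals (1.58) or arrays 1 to 4 alone (1.09). The probe of Igf2bp1 was dim everywhere and neither probe of Trim71, a let-7 target of stem cells, was bright enough to be tested. Arid3a, a DNA-binding factor of fetal B cells, was at 0.64 ± 0.48 (adjusted p = 0.00682). Afp, the fetal protein of the liver, rose by 6.50 ± 0.92 in the same tumors (90.3-fold).

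**Figure D3:**
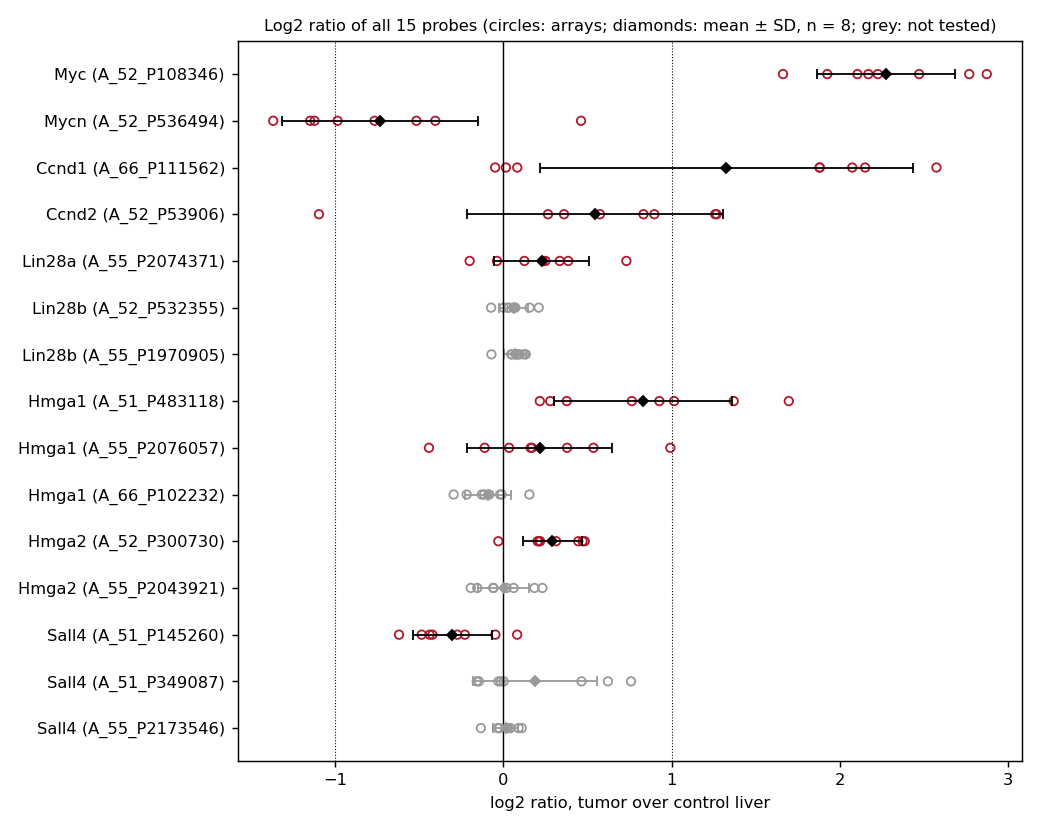
Log2 ratio of tumor over control for each of the 15 probes, with circles for the 8 arrays and diamonds for the mean ± SD. Red circles belong to tested probes and grey ones to probes too dim to test, and dotted lines mark 2-fold. Myc lies wholly beyond 2-fold, while both Lin28b probes stay within 0.21 of 0.

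Hmga1, the HMGA gene that dividing cells express widely, was above control on every array, with ratios of 0.76, 0.28, 1.37, 1.01, 0.38, 0.93, 0.22 and 1.70 (A_51_P483118). Same-sign ratios on all 8 arrays were seen in 2 of the 8 members, Myc and Hmga1, against 33.7% of all genes. Tumor levels ran from 12.73 through a median of 13.29 to 14.09 and control levels from 12.09 through 12.56 to 13.05, so the groups overlapped. The mean of 0.83 ± 0.53 (1.78-fold, adjusted p = 0.00281) passed the adjusted p and missed the size of a call. With the processed signals it was 1.03 and called. The second probe (A_55_P2076057) gave 0.21 ± 0.43 with an adjusted p over probes of 0.232, and the third (A_66_P102232) was above background in 1 tumor and 2 controls only. A near-identical copy of this gene, Hmga1b, is annotated in the mouse, and signal of 1 copy can include that of the other. Ratios of Hmga1 and Mki67 gave an r of -0.43 over the 8 arrays (exact permutation p = 0.294, adjusted 0.310; rho -0.29, p = 0.501, adjusted 0.751), and r was -0.22 without arrays 7 and 8. With each row centred, r was -0.51.

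Hmga2, the fetal paralog and one of the strongest let-7 targets known, was near the detection limit. Its probe (A_52_P300730) was well above background in 5 tumors and in 0 controls, so it entered the tests through the tumor channel alone. Its adjusted p is therefore no separate support for a rise. The ratios were 0.44, 0.48, 0.22, 0.47, 0.20, 0.21, 0.31 and -0.03 on arrays 1 to 8. Tumor levels were 6.28 to 6.66 with a median of 6.47, against 6.09 to 6.31 with a median of 6.19 in controls, and the groups overlapped at tumors 5 and 8. The gene was at least 1.21-fold higher in tumor (log2 ratio 0.29 ± 0.18, adjusted p = 0.0136). The size depends on how dim signals are treated: with the processed signals it was 1.52 (adjusted p = 0.00363) and the gene was called higher. On arrays 5 to 8 alone the ratio was 0.17 and did not pass (adjusted p = 0.372). A second probe (A_55_P2043921) was not above background on any array. Other high mobility group genes gave 1 call higher and 0 lower of 7 (9.54% and 5.94% of all genes), with a median of 0.15. The call was Hmgb2 (1.03 ± 0.50), a chromatin protein of dividing cells. It was not called without array 4 (0.91), array 5 (0.95) or array 8 (0.999), nor on arrays 1 to 4 alone (0.98). The closest gene to Hmga2 over the 8 arrays was Ezh2, a histone methyltransferase gene (r = 0.97). This r is the highest of 11210 genes searched, over 8 arrays and against Hmga2 values near the detection limit. It is a description and no sign of a link.

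The 3 probes of Sall4 gave different values. The brightest (A_51_P145260) was above background in both channels of every array and had a ratio of -0.30 ± 0.23, below 0 on 7 arrays (adjusted p = 0.0207, 1.24-fold lower in tumor). Tumor levels were 7.39 to 8.07 with a median of 7.74, against 7.79 to 8.20 with a median of 8.03 in controls, and the ranges overlapped. Without array 3 or array 6 the adjusted p was 0.0538 or 0.0520. On arrays 5 to 8 alone the ratio was -0.17 (adjusted p = 0.448). A second probe (A_51_P349087) was too dim to be tested, but in tumors 2, 6 and 7 it was well above background, at 6.52, 6.99 and 6.77, and it was in no control, where levels were 6.03 to 6.23. Its ratios in those tumors were 0.46, 0.76 and 0.62. The third probe (A_55_P2173546) was dim on every array. Genes of the SALL family and of NuRD, the repressor complex that SALL4 recruits, gave 0 calls of 13 by limma. Over all genes 9.54% were called higher and 5.94% lower. The median of the 13 was 0.12, and at an unadjusted p under 0.05 there were 5 above 0 and 2 below (31.6% and 27.9% of all genes). Of 11 pluripotency factors, 5 were tested and 0 called by limma, beside the same shares of all genes called, with a median of 0.28. Of the 5, 2 above 0 and 1 below had an unadjusted p under 0.05. With the processed signals or an offset of 16, 1 gene of SALL and NuRD was called higher, as was 1 with array weights or without arrays 7 and 8, and 1 pluripotency factor was called in each direction.

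**Figure D4:**
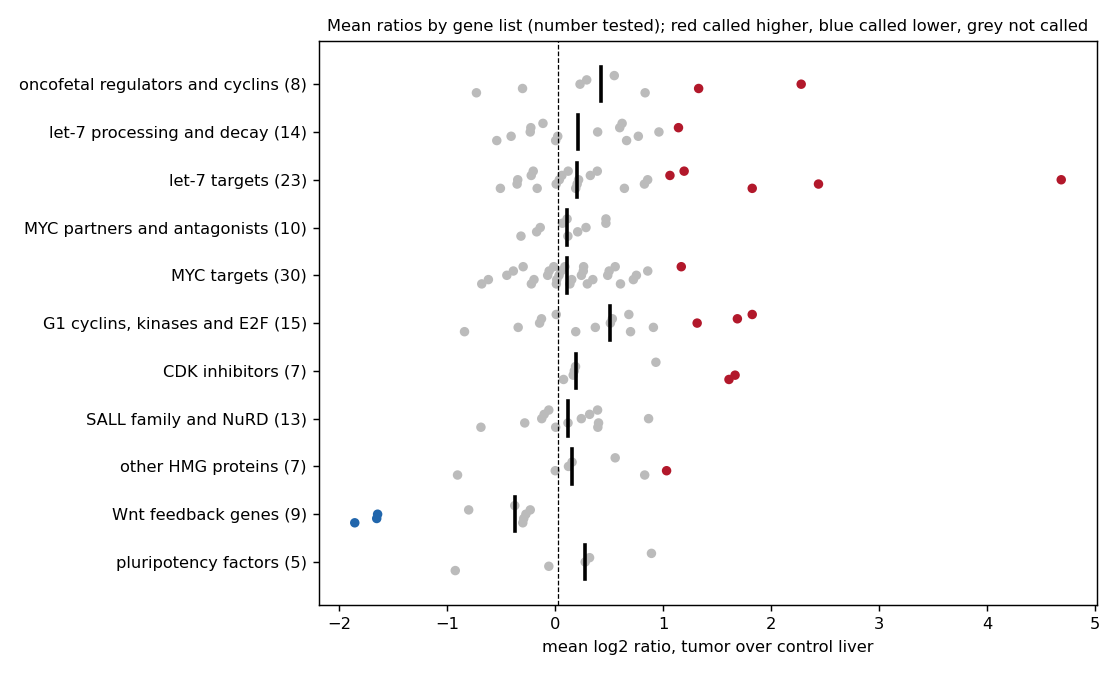
Mean log2 ratio of each tested gene of 11 lists, with the number tested in brackets, a black bar at the median of each list and a dashed line at the median of all genes. Red genes were called higher and blue genes called lower. The 3 blue genes are all in the list of Wnt feedback genes, and the 5 red let-7 targets reach 4.68.

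Over the 8 arrays the genes most like the remaining members were as follows, from the same search and as descriptions. Closest to Myc were Arhgap28 (r = 0.98), Zfpl1 (0.96) and Plpp1 (0.93), whose own mean ratios were 0.03, -0.10 and -0.40. Closest to Ccnd2 were Marcks (0.98), Pcdh12 (0.98) and Plekho1 (0.97), each lowest on array 8, at -0.79, -2.40 and 0.13. Hmga1 was followed by Rpp21 (0.92), Slc16a7 (0.91) and Sympk (0.91), Lin28a by Pdgfa (0.96), Ercc4 (0.96) and Egfl8 (0.94), and Mycn by Yif1b (0.98), Rpn2 (0.97) and Eny2 (0.96). Sall4 was followed by Bcl9l (0.99), Ss18l2 (0.98) and Slc35f6 (0.98), and Hmga2 after Ezh2 by Vegfc (0.97) and Ppie (0.96).

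The tissue was checked against marker lists, whose counts were of tested genes called higher and lower, beside 9.54% and 5.94% of all genes. Hepatocyte markers gave 0 and 2 of 9, bile duct markers as above, endothelial markers 0 and 2 of 8, stellate cell markers 4 and 0 of 8, macrophage markers 2 and 3 of 7, lymphocyte markers 1 and 0 of 6, erythroid markers 0 and 1 of 4 and muscle markers 0 and 0 of 3 (1 below 0 at an unadjusted p under 0.05). Summed hepatocyte markers were 587220 to 784780 in tumors and 816920 to 1094200 in controls. Summed endothelial markers were 5762 to 10160 in tumors and 17533 to 23911 in controls, both without overlap. Among single genes, 8.47% had all 8 tumors below all 8 controls. The hepatocyte sum weighs most its brightest genes, Fgb and Alb, both at a ratio of -0.29 and neither passing (adjusted p by limma 0.315 and 0.460). Ratios of that list ran from -1.64 to -0.29. The endothelial sum weighs its brightest genes most, Clec4g and Stab2, at ratios of -3.13 and -1.44. Kdr, Tek and Eng were also below 0, at -0.45, -0.84 and -0.75. Pecam1, Cdh5 and Lyve1 were above 0, at 0.24, 0.49 and 0.43, none with an adjusted p under 0.05. The part of these markers in the values of the 9 genes was not tested. The share of probes well above background was 38.5% to 51.9% in tumors and 45.1% to 54.3% in controls. Control channels of arrays 1 and 2 were the most alike, with an SD of their difference of 0.258 against 0.327 to 0.564 for the other pairs. They may not be independent, and with them averaged Myc was 2.32 and Ccnd1 1.38, both called.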

How the data were processed

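RNA of 8 tumors and of control liver was measured on 8 two-colour arrays. Per the file headers, the deposited files hold median foreground and background intensity for each spot, beside a processed intensity that the scanner software had background-subtracted and dye-normalized. The log10 ratio of red over green that the authors deposited was not used for results. Agilent Feature Extraction 10.9 is the software in the submitters' processing notes (10.9.1.1 per the file headers). Median signals were corrected with normexp (offset 50) and normalized by loess within each array (limma 3.58.1 and data.table version 1.17.8 in R 4.3.3). Control spots and outlier spots had weight 0 and were then dropped, and spots of a probe were averaged. For channel levels, Aquantile normalization followed loess. The number of saturated spots was 0.

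Testing required a signal well above background in 1 of the channels on 4 or more arrays, and the brightest tested probe stood for its gene. A gene dim in 1 channel throughout entered through the other channel alone, and its p is then no separate support for a difference. Mean log2 ratios were compared with 0 by limma's moderated test, with Benjamini-Hochberg adjustment over 14313 genes. For a gene dim in 1 channel throughout, the fold is a bound: per array, the dim channel was set to the lowest signal among probes above background, or to the gene's own signal if that was higher. Such bounds are open to dye bias. Names come from probe accessions in RefSeq annotation of GRCm38.p6: 26592 of 55681 probes had a symbol, 10 of them as named in the file. The array was designed on mm9, so no probe coordinates are given. Genes named are the 9 members with all probes, up to 4 called genes of each list with the largest ratios, 24 fixed genes, markers of the cell type lists and the 3 genes most like each tested member. The members and lists were chosen with earlier results of these data known. On simulated data of 14313 genes, the procedure called 0 of 67 genes with a shift of 0.5, 63 of 67 with 1.5 and all 66 with 3, and made 1 false call. A shift of 0.5 is under the size of a call, so the 0 calls there follow from that limit. They do not show whether such shifts are detected. Replicates are separate tumors per the labels, and p-values measure the spread between these arrays. The 23 alternatives covered background correction, offset, scaling, filters, probe choice, variance models, slide row and arrays left out.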

Additional observations from a re-analysis of the deposited data

Results flagged for a closer look

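Among 60 checks for a value far from the other 7 of its group, of which chance alone marks about 1 in 20, both values of Ccnd2 on array 8 stood apart. Its log2 ratio was -1.10, against 0.27 to 1.27 on the other arrays, and its tumor level was 8.22, against 9.42 to 10.19. The control level on that array, 9.31, was the highest of the 8 controls.

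A Sall4 probe outside the tests (A_51_P349087) was well above background in 3 tumors (2, 6 and 7) and in no control.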

How the results depend on the processing

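Myc was called in all 23 alternatives, at log2 ratios of 2.17 to 2.68. Ccnd1 kept its call in all but 1: it was not called on arrays 5 to 8 alone (1.03, adjusted p = 0.145). With the processed signals, Hmga1 (1.03), Hmga2 (1.52) and Mycn (-1.57) were called, 1531 genes were lower and 2009 higher, and 56.8% of calls were higher, against 61.6% in the values reported. With an offset of 16 in place of 50, Hmga2 was 0.52 and Mycn -0.98, neither called. On arrays 1 to 4 alone, Ccnd2 was called (1.06). On arrays 5 to 8 alone, 849 genes were higher, 54.5% of calls. Leaving out 1 array gave 1293 to 1533 genes higher and 836 to 902 lower. The sign turned, with no call before or after, for Cdkn2a with array weights (-0.075), Cdkn1b on arrays 1 to 4 alone (-0.016), Mxd1 on arrays 5 to 8 alone (-0.10) and Max without arrays 7 and 8 (-0.0029). Over fits that left out 1 array, Cdkn1b ranged from -0.013 to 0.13 and Max from -0.067 to 0.14. The correlation of Ccnd2 and Mki67 was -0.069 without arrays 2 and 8. The causes were not tested. Of 757 values of single genes under alternatives, 721 kept their sign and stayed called or not called as in the values reported. Values among these 721 could still cross the limit of the adjusted p. Hmga1 lost it on arrays 5 to 8 alone (0.80, adjusted p = 0.0899) and Mycn on arrays 1 to 4 alone (-0.55, adjusted p = 0.181). Lin28a gained it with array weights (0.32, adjusted p = 0.0236) and Ccnd2 without array 8 (0.78, adjusted p = 0.00169). Of 460 counts of called list members, 430 stayed within 1.5 times. Hmga2 has no value where all 8 arrays had to be above background, and Lin28b has one with no filter alone (0.06, adjusted p = 0.316). Each ratio already sets a tumor against the control of the same array. Beyond that no paired analysis was possible because the samples form 1 group. The row of the slide was the only block fitted, as an alternative. Signal over background limits Lin28b, Hmga2 and the second Sall4 probe.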
